A study of Mus musculus with 4 samples.

Results

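Transcripts for the nuclear-encoded subunits and the assembly factors of respiratory complex I were examined in cultured mouse spermatogonia with and without retinoic acid (RA). The genes were taken by name: every gene called *Ndufa*, *Ndufb*, *Ndufc*, *Ndufs*, *Ndufv*, *Ndufab* or *Ndufaf* with a number, and *Acad9*, *Ecsit*, *Nubpl*, *Timmdc1* and *Tmem126b*. This gave 50 of the 19991 genes in the table, namely 37 genes named as subunits and 13 assembly factors. The rule itself uses no measured value, but it was set with earlier results of these data known. *Ndufb1-ps* was also sought and is not analysed here.

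RNA-seq was done on 2 libraries of differentiating spermatogonia (dSG) and 2 libraries of undifferentiated spermatogonia (SG). The dSG cells were kept with RA for 36 h, and the SG cells are labelled with DMSO, the solvent. Both groups are wild type and came from testes. The labels name the strain C57BL/6, whereas the methods of the study name DBA mice, some crossed to GFP mice, with testes taken around postnatal day 5. The RA dose is 100 µM in the labels, and the methods give the same figure in nM. Both groups share the starting cells, sorted as CD9+/c-Kit- and grown in Stempro34 with FGF, ESGRO and GDNF/EGF. The dSG libraries come from whole cultures of which the design text calls most, not all, cells Kit+. Whether the replicates were grown as separate cultures is stated in neither source. A p-value here therefore covers the spread of these libraries alone, and that spread may be technical.

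Complex I passes electrons from NADH to ubiquinone and pumps protons across the inner mitochondrial membrane. Its matrix arm holds the flavin and the iron-sulfur clusters, its membrane arm pumps, and accessory subunits surround a conserved core. Assembly factors build the arms as modules and leave the finished enzyme, and the core subunits of the membrane arm are encoded by mitochondrial DNA. Spermatogonia lie at the base of the testis tubule, and RA, made from vitamin A, starts their differentiation.

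The SG libraries were unequal, and this bears on every value below. The library of SG replicate 1 had 7484560 reads, while the other 3 had 22307745 to 26953654. *Lars2* took 18.3% of the reads in SG replicate 1 and 3.66% to 5.60% in the others. Over all genes, the log2 difference between replicates had an SD of 0.20 in dSG and 0.81 in SG. The values are reads per gene over a library's size factor, called normalized counts here, and 1 read is worth 3.26 of them in SG replicate 1 and 0.626 to 0.725 in the others. The labels were checked on *Kit*, the receptor that marks differentiating spermatogonia, which had 5825 and 5921 normalized counts in dSG, against 319 and 347 in SG. *Etv5*, a transcription factor of undifferentiated spermatogonia, had 682 and 763 in dSG, against 6035 and 5507 in SG. The germ cell markers *Dazl* and *Ddx4* were present in all libraries, with log2 fold changes of 0.78 and 0.29. The sums over 5 germ cell markers were 36343 and 39238 in dSG, against 43291 and 45204 in SG, where the lower dSG sums came from *Zbtb16*, *Gfra1* and *Sall4*, genes of undifferentiated spermatogonia (log2 fold changes of -1.51, -1.43 and -0.74). Summed over 8 fibroblast and feeder markers, the libraries held 4822 and 4870 in dSG, against 12488 and 8391 in SG, mostly from *Fn1* and *Col1a1*. Other members of that list went the other way, such as *Col1a2*, with 24.7 and 35.0 in dSG, against 13.0 and 3.15 in SG, and *Dcn*, *Lum* and *Col3a1* at under 10 in every library. The sums over 6 Sertoli markers were 171 and 190 in dSG, against 675 and 396 in SG. Most of the SG sums came from *Sox9*, at 460 and 246. *Wt1* (log2 fold change of 0.15), *Gata4* and *Cldn11* overlapped between the groups. The sums over 3 endothelial markers were 116 and 123 in dSG, against 411 and 432 in SG. Most of the SG sums came from *Pecam1*, at 267 and 261, and *Cdh5* overlapped. Of these lists, *Dcn*, *Lum* and *Rhox5* were listed at 0 in at least 1 library, and the part of such cells in the results below was not tested. In bulk RNA, fewer cells of a type and less RNA per cell cannot be told apart.

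To show what lies at the starts of these genes, promoters were read from RefSeq on GRCm38.p6, each 300 bases long, with 250 bases before the start and 50 after it. The table held 44 of the 50 genes. A set of 5 words known as binding motifs was searched on both strands. *Ndufa1* and *Ndufv1* are shown as the subunits with the highest and the lowest log2 fold change, and *Ndufaf4*, *Timmdc1* and *Tmem126b* as the genes with the most matches to the NRF1, ETS and YY1 words, with ties broken by log2 fold change. Matches are in capitals and the strand shown is that of the gene. For *Ndufa1* the RefSeq start lies upstream of the gene's start in GENCODE M21.
Ndufa1 (chrX:37191189-37191488, minus strand): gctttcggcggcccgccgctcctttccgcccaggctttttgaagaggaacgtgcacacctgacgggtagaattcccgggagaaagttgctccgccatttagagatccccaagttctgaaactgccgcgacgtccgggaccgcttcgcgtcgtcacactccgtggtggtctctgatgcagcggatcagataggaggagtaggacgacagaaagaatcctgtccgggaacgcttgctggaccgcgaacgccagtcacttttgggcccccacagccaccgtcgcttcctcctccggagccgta
Ndufv1 (chr19:4012706-4013005, minus strand): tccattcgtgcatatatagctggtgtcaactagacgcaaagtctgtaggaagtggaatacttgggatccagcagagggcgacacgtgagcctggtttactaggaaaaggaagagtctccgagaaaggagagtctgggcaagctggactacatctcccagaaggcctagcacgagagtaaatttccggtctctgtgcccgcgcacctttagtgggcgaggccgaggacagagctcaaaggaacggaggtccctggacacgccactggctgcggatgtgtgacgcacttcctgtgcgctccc
Ndufaf4 (chr4:24897833-24898132, plus strand): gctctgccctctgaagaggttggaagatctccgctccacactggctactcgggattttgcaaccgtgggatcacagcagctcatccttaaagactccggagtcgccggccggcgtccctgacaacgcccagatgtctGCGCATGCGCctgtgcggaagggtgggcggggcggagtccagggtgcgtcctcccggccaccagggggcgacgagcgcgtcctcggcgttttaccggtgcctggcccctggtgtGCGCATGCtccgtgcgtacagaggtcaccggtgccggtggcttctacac
Timmdc1 (chr16:38522614-38522913, minus strand): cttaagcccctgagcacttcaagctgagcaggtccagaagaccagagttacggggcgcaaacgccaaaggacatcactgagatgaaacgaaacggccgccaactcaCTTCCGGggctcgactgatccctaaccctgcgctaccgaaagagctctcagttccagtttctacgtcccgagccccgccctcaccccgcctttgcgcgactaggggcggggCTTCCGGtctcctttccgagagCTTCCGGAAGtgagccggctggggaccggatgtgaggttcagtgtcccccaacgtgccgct
Tmem126b (chr7:90475946-90476245, minus strand): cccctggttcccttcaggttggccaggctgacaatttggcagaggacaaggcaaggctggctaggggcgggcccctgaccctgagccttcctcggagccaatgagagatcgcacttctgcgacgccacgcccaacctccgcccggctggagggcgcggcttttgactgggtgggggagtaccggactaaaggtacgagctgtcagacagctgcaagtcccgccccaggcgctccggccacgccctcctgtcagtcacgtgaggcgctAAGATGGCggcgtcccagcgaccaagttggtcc

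The promoters of *Ndufa1* and *Ndufv1* held none of the 5 words. *Ndufaf4* held the NRF1 word GCATGCGC 3 times. NRF1 is a transcription factor of many nuclear genes for mitochondrial proteins. The word overlaps itself across the strands, so a pair of these matches lies in 1 run of 10 bases, at -113 to -104 from the start. *Timmdc1* held the ETS word CCGGAAG 4 times, and a pair of these also shares bases, at -11 to -2. GABPA is the ETS factor best known for genes of the respiratory chain. *Tmem126b* held the YY1 word AAGATGGC once, at 18 to 25 bases from the start. YY1 is known to bind this word, which holds an ATG and can therefore lie at the first codon of a gene.

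Over the genes with a promoter, the YY1 word was found in 7 of 33 subunits (21.2%) and in 2 of 11 assembly factors (18.2%). Over all 27025 genes with a promoter the share was 3.19%. The subunits were *Ndufa3*, *Ndufa9*, *Ndufb8*, *Ndufc1*, *Ndufs4*, *Ndufs6* and *Ndufs7*, and the assembly factors were *Ndufaf8* and *Tmem126b*. In 6 of these 9 genes both dSG libraries lay above both SG libraries. The same held in 19 of the 35 genes without the word and in 33.2% of all tested genes. A link between the word and the difference was not tested. The NRF1 word was in 3 of 33 subunits (9.09%) and 2 of 11 assembly factors (18.2%), beside 3.05% of all genes with a promoter. The ETS word was in 4 of 33 subunits (12.1%) and 4 of 11 assembly factors (36.4%), beside 9.93% of all. The word of estrogen-related receptors, TCAAGGTCA, was in none of the 44 and in 0.466% of all genes with a promoter. The DR5 element of RA receptors, AGGTCA repeated after a gap of 5 bases, was in none of the 44 and in 0.0111% of all. A match is a run of letters, and no binding was measured.

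To ask whether transcripts of complex I differ between dSG and SG, the groups were compared by limma on log2(normalized count + 4), over 14108 genes, with p-values adjusted by Benjamini-Hochberg over all of them. Fold changes on this scale understate the change of low genes. No gene of complex I passed an adjusted p of 0.05 by limma in either direction, and none did by edgeR. DESeq2 called 1, *Ndufa1*, higher in dSG. Over all tested genes limma called 6.07%, with 1.16% higher and 4.91% lower in dSG. edgeR called 1.4% of all genes higher and 6% lower, and DESeq2 called 3.32% higher and 10.4% lower. Without adjustment, 6 of the 50 genes had a p under 0.05 by limma and were higher in dSG, all of them subunits, and 0 were lower, beside 10.5% of all genes higher and 16.3% lower. These 6 were *Ndufa1*, *Ndufs5*, *Ndufb2*, *Ndufa9*, *Ndufb5* and *Ndufs1*. The smallest adjusted p of the 50 was that of *Ndufb2*, 0.11.

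The subunits leaned to higher values in dSG without a call. Of the 37 subunits, 29 had a log2 fold change above 0 and 8 below it, with a median of 0.28 and a range of -0.50 to 1.78. All tested genes had a median of 0.01, and 50.8% of them lay above 0. In 19 subunits both dSG libraries lay above both SG libraries, in 1 both lay below, and in 17 the groups overlapped. Over all genes, 33.2% lay above and 32.7% below in the same way, 65.9% together. Of the 13 assembly factors, 8 had a log2 fold change above 0 and 5 below it, with a median of 0.19 and a range of -0.57 to 0.73. Among them 8 lay above in both dSG libraries, 2 lay below and 3 overlapped.

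**Figure D1:**
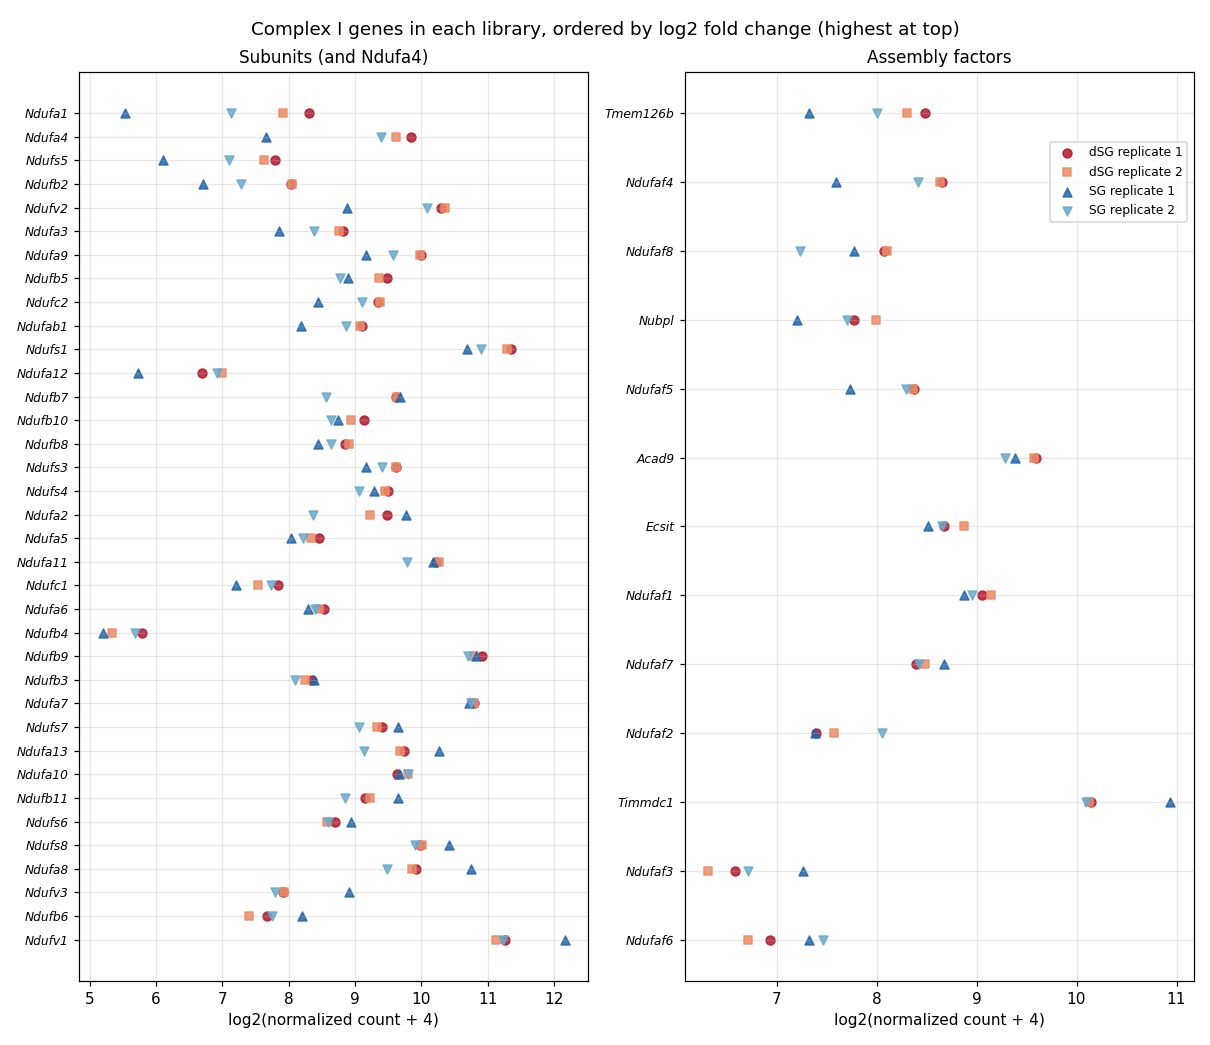
Level of complex I genes (49 of the 50), as log2(normalized count + 4) on the x axis, in the 4 libraries (circles and squares: dSG, triangles: SG), with genes on the y axis ordered by log2 fold change. The 2 dSG points of a gene lie close together (median distance 0.07 on the log2 scale), and the 2 SG points lie farther apart (median distance 0.53).

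Summed normalized counts of the 37 subunits were 29270 and 28279 in the dSG libraries, against 28613 and 23676 in the SG libraries. SG replicate 1 thus lay between the dSG libraries, and SG replicate 2 lay below them all. The assembly factors summed to 5103 and 5172 in dSG, against 5237 and 4729 in SG, and these groups overlapped. With 2 libraries against 2, an exact permutation test cannot go below p = 0.33, so no test was made on the sums. The sums weigh the highest genes most. *Ndufv1* alone held 4582 normalized counts in SG replicate 1, against 2234 to 2454 in the other libraries. *Timmdc1* held 1959 in SG replicate 1, against 1090 to 1129 in the others. Without *Ndufv1* and *Timmdc1*, the dSG sums of both sets would lie above the SG sums. Gene by gene, the SG replicates stood farther apart than the dSG replicates in 43 of the 50 genes. Behind these values were 10 to 1406 reads a gene in SG replicate 1, with a median of 127.

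The nuclear-encoded core subunits carry the electrons, and 5 of 7 had a log2 fold change above 0. *Ndufv1*, which binds the flavin and NADH, had 2454 and 2234 normalized counts in dSG, against 4582 and 2409 in SG. The groups overlapped, as dSG replicate 1 lay above SG replicate 2, and only SG replicate 1 stood apart. This gave a log2 fold change of -0.50 (95% interval -1.44 to 0.44, n = 2 libraries each), the lowest of the subunits, and -0.04 without SG replicate 1. *Ndufv2*, which holds an iron-sulfur cluster beside the flavin, had 1258 and 1306 in dSG, against 466 and 1087 in SG. Both dSG libraries lay above both SG libraries. The log2 fold change of *Ndufv2* was 0.84 (-0.33 to 2.02), and 0.24 without SG replicate 1. Both moved towards 0 without that library, and after the GC correction (the trend of each library with GC content removed) both were above 0, at 0.018 for *Ndufv1* and 0.26 for *Ndufv2*.

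*Ndufs1*, the largest subunit, which carries several iron-sulfur clusters, had 2611 and 2517 normalized counts in dSG, against 1646 and 1898 in SG. Both dSG libraries lay above both SG libraries, and SG replicates differed less here than in *Ndufv2*. The log2 fold change of *Ndufs1* was 0.54 ± 0.18 (SE), with an adjusted p of 0.16 by limma. *Ndufs3*, of the module that reduces ubiquinone, had 783 and 782 in dSG, against 574 and 678 in SG, without overlap, and a log2 fold change of 0.33 (0.21 without SG replicate 1, 0.45 without SG replicate 2). Of the transcript of *Ndufs3*, 59.5% is shared in runs of 50 bases with the pseudogenes *Gm12251* and *Gm11927*, so its counts are uncertain.

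*Ndufs7* and *Ndufs8* hold the last iron-sulfur clusters before ubiquinone. *Ndufs7* had 672 and 642 normalized counts in dSG, against 802 and 527 in SG. *Ndufs8* had 1006 and 1025 in dSG, against 1362 and 952 in SG. In both genes the dSG libraries lay between SG replicate 2 and SG replicate 1. Their log2 fold changes were 0.01 and -0.16. They were 0.32 and 0.09 without SG replicate 1, and -0.29 and -0.42 without SG replicate 2, so the sign of each rested on 1 library.

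Levels between core genes were set side by side per kilobase of the principal transcript. *Ndufv1* was the highest core gene on this scale, at a mean of 1411 normalized counts per kilobase in dSG and 2104 in SG. *Ndufs8* had 1011 in dSG and 1151 in SG. The lowest in dSG was *Ndufs7*, at 669, against 676 in SG, and the lowest in SG was *Ndufv2*, with 755 in dSG and 457 in SG. Over all 50 genes on this scale, the highest was *Ndufa7*, an accessory subunit of the matrix arm, at 3360 in dSG and 3232 in SG. The lowest in dSG was *Ndufb4*, of the distal membrane arm, at 45.2, against 41.1 in SG. The lowest in SG was *Ndufb2*, whose principal transcript is long, at 59.5 in dSG and 29.0 in SG.

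The accessory subunits of the matrix arm had a median log2 fold change of 0.28, with 7 of 9 above 0. *Ndufa9*, which binds NADPH near the ubiquinone pocket, had 1016 and 1010 normalized counts in dSG, against 574 and 756 in SG. The groups did not overlap. A log2 fold change of 0.62 ± 0.22 (SE) came with an adjusted p of 0.17 by limma. *Ndufa2*, a thioredoxin-like subunit, had 714 and 595 in dSG, against 873 and 328 in SG, so that the SG libraries lay on either side of the dSG libraries. The log2 fold change of 0.28 became 0.98 without SG replicate 1 and -0.42 without SG replicate 2. *Ndufv3*, a small subunit beside the flavin, had 238 and 240 in dSG, against 476 and 219 in SG, and overlapped. *Ndufv3* had a log2 fold change of -0.43, and 0.12 without SG replicate 1. *Ndufs6*, a zinc-binding subunit of the same arm, had a log2 fold change of -0.13, and shared 39.3% of its transcript with the pseudogene *Ndufs6b*. The other 5, *Ndufa5*, *Ndufa6*, *Ndufa7*, *Ndufa12* and *Ndufs4*, had log2 fold changes of 0.06 to 0.52. *Ndufa12* shared 33.9% of its transcript with the pseudogene *Gm15920*.

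Within the arms, the 3 highest fold changes were in the membrane arm. Its proximal part had a median log2 fold change of 0.26, with 7 of 9 above 0. *Ndufa1*, a small membrane subunit encoded on chromosome X (GRCm38, 37187588 to 37191163, minus strand), had 313 and 238 normalized counts in dSG, against 42.4 and 136 in SG. Both dSG libraries lay above both SG libraries, and on the log2 scale the SG replicates differed from each other by more than SG replicate 2 differed from dSG. The value in SG replicate 1 rests on 13 reads, beside 216 to 431 in the other libraries. Its log2 fold change was 1.78 (95% interval 0.22 to 3.34), the highest of the 50, with an adjusted p of 0.15 by limma, 0.18 by edgeR and 0.024 by DESeq2. Leaving out SG replicate 1 gave 0.99, and leaving out SG replicate 2 gave 2.58. *Ndufs5*, a subunit on the side of the intermembrane space, had 218 and 195 in dSG, against 65.2 and 133 in SG. The groups did not overlap. The log2 fold change of *Ndufs5* was 1.11 (0.06 to 2.16), with 0.62 when SG replicate 1 was left out and 1.60 when SG replicate 2 was, and 43.2% of its transcript is shared with the pseudogene *BC002163*.

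*Ndufa3*, a small membrane subunit, had 448 and 428 normalized counts in dSG, against 228 and 331 in SG. *Ndufc2*, also a membrane subunit, had 646 and 659 in dSG, against 345 and 546 in SG. Neither gene overlapped between the groups, and their log2 fold changes were 0.66 and 0.58, or 0.40 and 0.26 without SG replicate 1. *Ndufa8*, which faces the intermembrane space, had 969 and 925 in dSG, against 1717 and 712 in SG. *Ndufa13*, also known as Grim19, had 846 and 818 in dSG, against 1222 and 559 in SG. In both genes the SG libraries lay on either side of dSG. *Ndufa8* had a log2 fold change of -0.22, which became 0.41 without SG replicate 1, and *Ndufa13* had 0.01, which became -0.55 without SG replicate 2. The exons of *Ndufa13* overlap those of *Tssk6* on the opposite strand in part, and the strand setting of the counting is not given in the sources used here. *Ndufa11*, *Ndufc1* and *Ndufa10* had log2 fold changes of 0.26, 0.22 and -0.02. *Ndufa11* shared 25.1% of its transcript with the pseudogene *Ndufa11b*.

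The distal part of the membrane arm is made of the *Ndufb* subunits, with a median log2 fold change of 0.23 and 8 of 10 above 0. *Ndufb2* had 259 and 262 normalized counts in dSG, against 101 and 152 in SG. The groups did not overlap, and the dSG libraries differed by less than 3 normalized counts. Its log2 fold change was 1.04 (0.29 to 1.80), with 0.76 when SG replicate 1 was left out and 1.33 when SG replicate 2 was. *Ndufb5* had 713 and 651 in dSG, against 473 and 434 in SG. Here the SG replicates stood close, and the log2 fold change of 0.59 moved to 0.65 and 0.52 when SG replicate 1 and SG replicate 2 were left out in turn, with an adjusted p of 0.15 by limma over all 4 libraries. *Ndufb7*, a subunit of the intermembrane side, had 778 and 791 in dSG, against 818 and 374 in SG. These overlapped, and the log2 fold change of 0.50 came to 1.06 when SG replicate 1 was left out and to -0.06 when SG replicate 2 was.

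*Ndufb6* was the 1 subunit with both dSG libraries below both SG libraries, at 199 and 166 normalized counts in dSG, against 290 and 211 in SG. For *Ndufb6* the log2 fold change was -0.43 (-1.15 to 0.28), and -0.21 without SG replicate 1, and 39.0% of its exon length overlaps *Smim27* on the opposite strand. *Ndufb11*, encoded on the X chromosome, had 563 and 592 in dSG, against 795 and 457 in SG. Its groups overlapped, and the log2 fold change of -0.06 became 0.33 without SG replicate 1. Of its transcript, 25.2% is shared with the pseudogene *Gm6444*, and 12.9% of its exon length overlaps *Rbm10* on the opposite strand. *Ndufb4* had 51.5 and 36.3 normalized counts in dSG, against 32.6 and 47.2 in SG, and 40.2% of its transcript is shared with pseudogenes. *Ndufb3*, *Ndufb8*, *Ndufb9* and *Ndufb10* had log2 fold changes of 0.07 to 0.34. *Ndufb9* shared 28.7% of its transcript with *Gm49356*, which overlaps it on the same strand.

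A pair of genes named as subunits stand outside the arms. *Ndufab1* is the mitochondrial acyl carrier protein, which is bound in both arms and also serves fatty acid synthesis. It had 547 and 534 normalized counts in dSG, against 287 and 464 in SG, without overlap. This made a log2 fold change of 0.56 (-0.23 to 1.35), and 0.22 without SG replicate 1. *Ndufa4* carries the name of a complex I subunit but has since been assigned to complex IV. It had 915 and 782 in dSG, against 199 and 668 in SG, and both dSG libraries lay above both SG libraries. *Ndufa4* had a log2 fold change of 1.20 (-0.42 to 2.82), second to *Ndufa1*, and 0.34 without SG replicate 1.

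**Figure D2:**
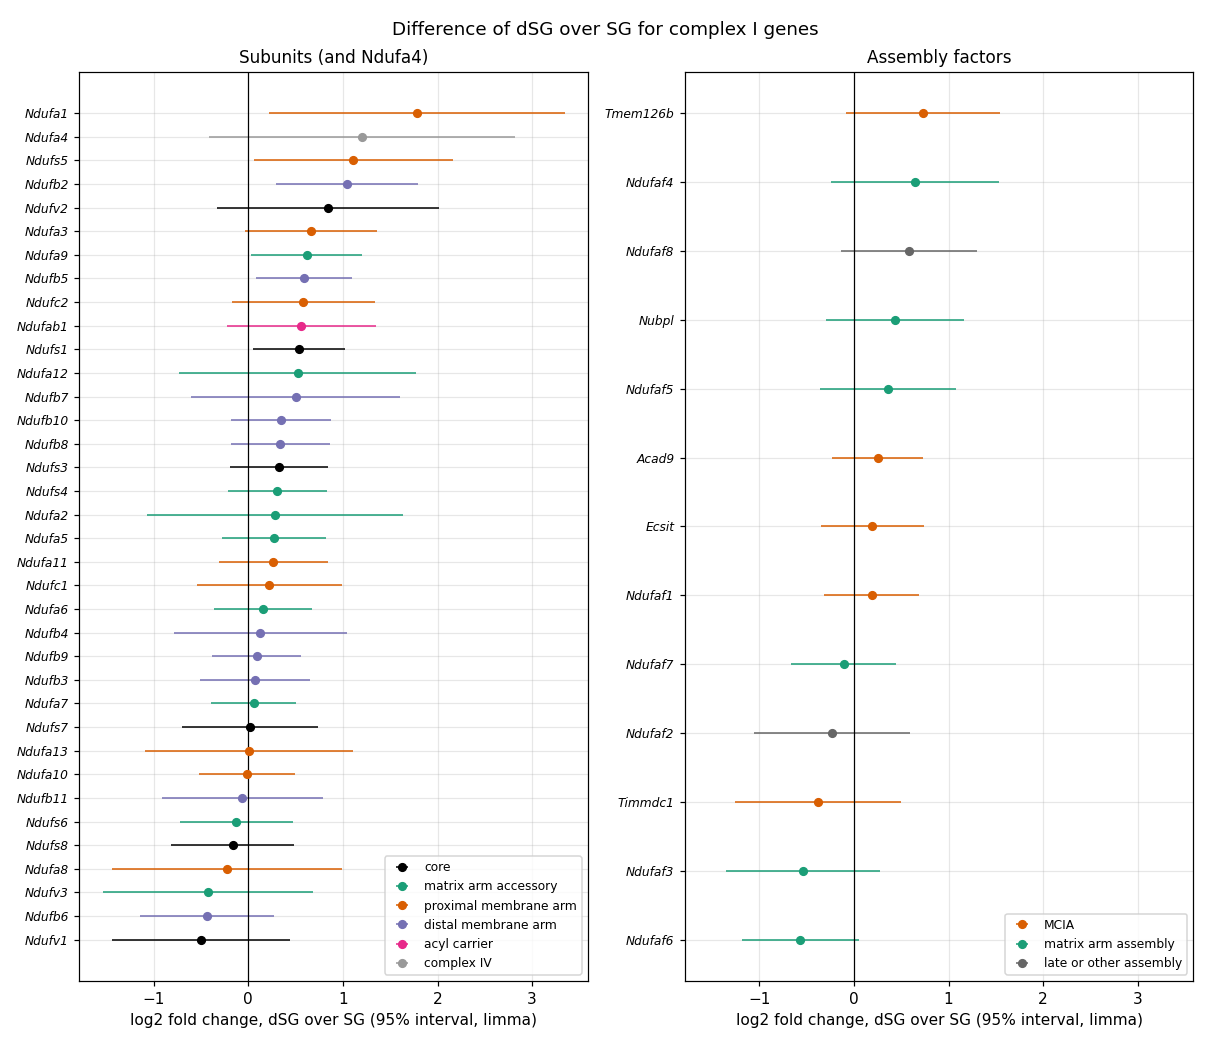
log2 fold change of dSG over SG (x axis) for 49 of the 50 complex I genes, with its 95% interval from limma, coloured by place in the enzyme or role in assembly. The intervals of 6 subunits, from *Ndufa1* at 1.78 to *Ndufs1* at 0.54, lie above 0, and no interval of an assembly factor does. Over all tested genes, 10.5% were higher in dSG with an unadjusted p under 0.05 by limma.

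Assembly factors of the MCIA complex build the proximal membrane arm, and their median log2 fold change was 0.19, with 4 of 5 above 0. *Tmem126b*, a membrane protein of this complex, had 353 and 313 normalized counts in dSG, against 156 and 253 in SG. The groups did not overlap. The difference was 0.73 on the log2 scale (-0.09 to 1.54), the highest of the 13, and 0.39 without SG replicate 1. *Acad9*, an acyl-CoA dehydrogenase that also acts in fatty acid oxidation, had 770 and 760 in dSG, against 665 and 621 in SG. *Ecsit*, also known as an adaptor in Toll-like receptor signalling, had 404 and 466 in dSG, against 362 and 398 in SG. *Ndufaf1* had 530 and 563 in dSG, against 466 and 493 in SG. None of these 3 overlapped between the groups, and their log2 fold changes were 0.25, 0.19 and 0.19. *Timmdc1*, a partner of the complex, had 1129 and 1113 in dSG, against 1959 and 1090 in SG. Its groups overlapped, and the log2 fold change of -0.38 was 0.04 without SG replicate 1.

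The factors grouped here with the matrix arm split evenly, with 3 of 6 above 0 and a median log2 fold change of 0.12. *Ndufaf3* and *Ndufaf4* bind each other on the module that reduces ubiquinone. *Ndufaf3* had 92.1 and 75.7 normalized counts in dSG, against 150 and 101 in SG, below in both libraries. *Ndufaf4* had 399 and 394 in dSG, against 189 and 337 in SG, above in both. Their log2 fold changes were -0.54 (-1.35 to 0.28) and 0.64 (-0.25 to 1.53), and they moved to -0.26 and 0.23 without SG replicate 1 and to -0.81 and 1.05 without SG replicate 2. After the GC correction they were -0.055 and -0.14, so the opposite signs were lost. *Ndufaf6* is in this group, although in human cells it is needed for making a core subunit of the membrane arm. It had 118 and 101 in dSG, against 156 and 173 in SG. It lay lower in both dSG libraries, with the SG replicates close to each other. Its log2 fold change was -0.57 (-1.19 to 0.05), the lowest of the 50, and stayed at -0.64 without SG replicate 1 and -0.50 without SG replicate 2.

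*Ndufaf5*, which in human cells hydroxylates an arginine of the Ndufs7 protein, had 328 and 325 normalized counts in dSG, against 209 and 310 in SG. *Ndufaf7*, which in human cells methylates a core subunit, had 334 and 354 in dSG, against 404 and 340 in SG. *Nubpl*, which delivers iron-sulfur clusters, had 215 and 251 in dSG, against 143 and 205 in SG. Only *Ndufaf7* overlapped, and the log2 fold changes were 0.36, -0.11 and 0.43. Without SG replicate 1 they were 0.08, 0.02 and 0.18, so their size, and for *Ndufaf7* the sign, rested on that library. After the GC correction they were 0.20, -0.27 and -0.066, so the sign of *Nubpl* changed. *Ndufaf8*, a partner of *Ndufaf5* that was grouped apart from it here, had 266 and 270 in dSG, against 215 and 147 in SG, without overlap. *Ndufaf2*, a paralogue of the subunit *Ndufa12*, had 165 and 187 in dSG, against 163 and 262 in SG. *Ndufaf2* overlapped between the groups, and 65.7% of its exon length is overlapped by *B230220B15Rik* on the opposite strand. The log2 fold changes were 0.58 for *Ndufaf8* and -0.23 for *Ndufaf2*. They were 0.85 and -0.57 without SG replicate 1, and 0.31 and 0.10 without SG replicate 2.

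The unequal SG libraries moved with base composition. Across the 50 genes, the gap of the first SG library over the second, on the log2 scale, ran with the GC content of the principal transcript (Pearson r = 0.63, Spearman rho = 0.65). These points share the same libraries and genes are not independent replicates, so the values are a description. Between the dSG replicates rho was 0.01 in these 50 genes. Over 14102 genes, rho with GC content was 0.74 for the SG replicates and 0.28 for the dSG replicates. In the 50 genes the log2 fold change ran against GC content (rho = -0.47). It did so more without SG replicate 2 (-0.60), and hardly without SG replicate 1 (-0.03). Of the 25 genes at or below the median GC content of 51.3%, the median log2 fold change was 0.43, and it was 0.09 in the 25 genes above it. Without SG replicate 1 these medians were 0.23 and 0.21.

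**Figure D3:**
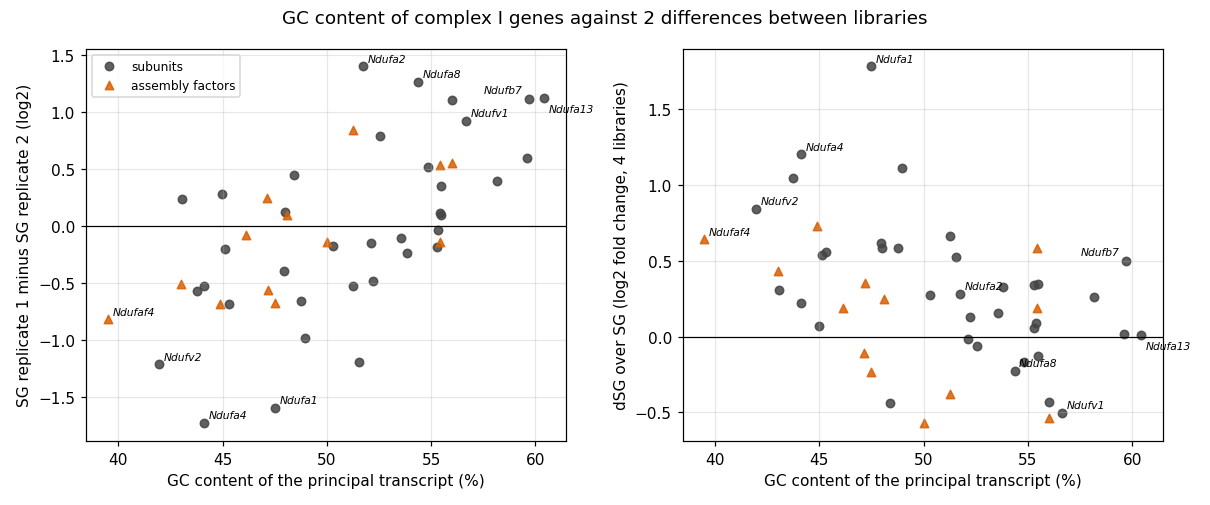
GC content of the principal transcript (x axis, %) of 49 of the 50 complex I genes against SG replicate 1 minus SG replicate 2 (left, log2) and against the log2 fold change of dSG over SG (right). The left points climb with GC content (rho = 0.65 over all 50 genes) and the right points fall with it (rho = -0.47).

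The median of the subunits stayed above 0 without either SG library, and its size and the calls changed with the processing. Without SG replicate 1 the median of the subunits was 0.26, with 31 of 37 above 0, and without SG replicate 2 it was 0.20, with 24 of 37 above 0. After the GC trend of each library, fitted over the tested genes, was removed, the median of the subunits was 0.49, with 33 of 37 above 0. That of the assembly factors was -0.061, with 5 of 13 above 0. Against the fit without the correction, the sign changed in 13 of the 50 genes. Among the 50 genes the corrected log2 fold change then ran with GC content (rho = 0.40). Its median was 0.52 in the genes above the median GC content and 0.20 in the rest. The median GC content was 52.1% in subunits and 47.5% in assembly factors, so this difference between them is not free of GC content. That fit called 7 subunits, *Ndufa9*, *Ndufa11*, *Ndufa13*, *Ndufb2*, *Ndufb7*, *Ndufb10* and *Ndufs7*, and 1 assembly factor, *Ndufaf8*, all higher in dSG, beside 11.3% of all genes called higher and 11.9% called lower. *Ndufa1* was not among them (adjusted p = 0.071 by limma), nor was *Ndufa4* (0.21). Leaving out a library changed the calls of all genes too. Without SG replicate 1, 25 of the 50 genes were called higher and 2 lower, beside 31% and 28.8% of all genes. Without SG replicate 2, 25 were called higher and 14 lower, beside 38.5% and 42.7% of all genes. In both of these fits the spread comes from the dSG pair alone. Without dSG replicate 1, 0 of the 50 were called by limma, beside 0.361% of all genes higher and 3.1% lower, and without dSG replicate 2 also 0, beside 0.291% higher and 3.08% lower.

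Other genes of the same pathway were counted by lists. Of 8 further assembly and stability factors, 0 were called by limma and 0 had an unadjusted p under 0.05. *Lyrm2* had 125 and 150 normalized counts in dSG, against 84.7 and 105 in SG. *Chchd4*, which imports cysteine-rich subunits into the intermembrane space, had 508 and 499 in dSG, against 629 and 683 in SG, with a log2 fold change of -0.38. Of 14 tested genes of mitochondrial iron-sulfur cluster supply, 0 were called by limma. *Nfs1*, the cysteine desulfurase that gives the sulfur, had 817 and 775 in dSG, against 319 and 486 in SG, with a log2 fold change of 1.01 and an adjusted p of 0.11. *Fdxr*, the reductase that gives the electrons, had 147 and 126 in dSG, against 551 and 233 in SG, with a log2 fold change of -1.37 (-0.75 without SG replicate 1) and an adjusted p of 0.16.

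Of 6 genes that bring electrons to ubiquinone by other ways, 0 were called by limma. *Etfdh*, which passes on electrons from fatty acid oxidation, had 691 and 676 normalized counts in dSG, against 277 and 411 in SG, with a log2 fold change of 1.01 and an adjusted p of 0.10. *Sqor*, which oxidises sulfide, had 81.2 and 126 in dSG, against 45.6 and 35.9 in SG, with a log2 fold change of 1.24 and an adjusted p of 0.11. Neither overlapped between the groups. The paralogue *Ndufa4l2*, known as a target of hypoxia signalling, was the 1 gene of these lists to be called. It had 1.45 and 5.63 in dSG, against 94.5 and 69.8 in SG. The log2 fold change was -3.56 ± 0.42 (SE), with an adjusted p of 0.028 by limma, and stayed at -3.35 without SG replicate 1 and -3.77 without SG replicate 2. It thus fell while its relative *Ndufa4* stood at 1.20 without a call. The mitochondrially encoded subunits are not analysed here.

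For a scale, other large assemblies of the same membrane were read side by side. The 44 tested subunits of complexes II to V had a median log2 fold change of 0.06, with 26 above 0 and 0 called by limma. The 77 mitochondrial ribosomal proteins had a median of 0.04, with 42 above 0 and 1 called, lower in dSG. Complex I subunits stood at 0.28 with 29 of 37 above 0. Without SG replicate 1 the medians were 0.26 for complex I subunits, 0.13 for complexes II to V and 0.11 for mitochondrial ribosomal proteins. After the GC correction they were 0.49, 0.26 and 0.12, with 33 of 37, 33 of 44 and 48 of 77 genes above 0, beside 0.075 over all genes. No test was made between these lists, which share the same libraries.

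**Figure D4:**
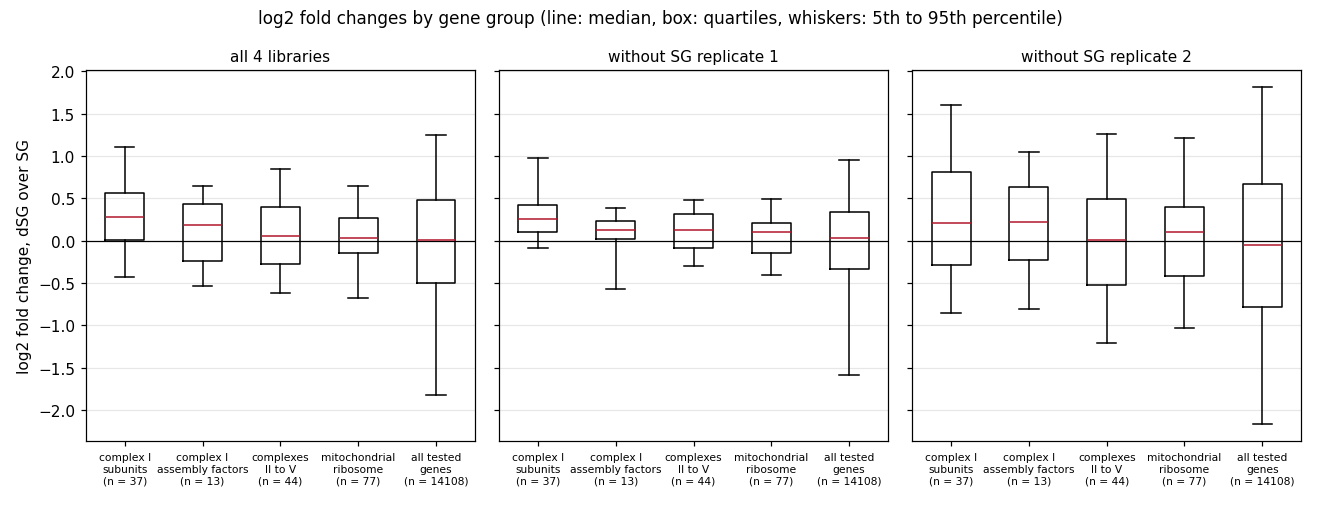
log2 fold change of dSG over SG (y axis) in complex I subunits, complex I assembly factors, subunits of complexes II to V, mitochondrial ribosomal proteins and all tested genes, with all 4 libraries and without either SG replicate. Lines are medians, boxes quartiles and whiskers the 5th to 95th percentile, and the complex I subunits have medians of 0.28, 0.26 and 0.20 in the 3 panels.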

How the data were processed

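RNA-seq of 4 libraries was used, 2 dSG and 2 SG. Total RNA was extracted with Trizol and made into directional paired-end libraries. The submitters' processing notes and the methods name Subread for alignment to GRCm38, featureCounts 1.5.3 for counting and DESeq2. Which annotation was counted, with which strand setting and how multiply matching reads were handled, was not given in the sources used here. The deposited signal per gene is a read count over the size factor of its library, as the authors normalized it. The table is named for RPKM, but its values are whole multiples of 1 step per library, and reads recovered at a tolerance of 0.01 were whole for 100% of values. The deposited mean, log2 fold change, standard error, Wald statistic, p-value and adjusted p-value columns of the authors' DESeq2 comparison were not used.

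Limma 3.58.1 (R 4.3.3) was run with a trend on log2(normalized count + 4) over 14108 genes with at least 20 in at least 2 libraries, and genes were called at an adjusted p of 0.05. All 50 complex I genes passed this filter. edgeR 4.0.16 (quasi-likelihood) and DESeq2 1.42.0 were run on the recovered reads. Other alternatives were quantile, upper quartile and median scaling, filters and pseudocounts, array weights, a loess GC correction, the replicate block and leaving out each library. Scripts were tested on simulated data. Transcript lengths, GC content and coordinates came from GENCODE M21 (GRCm38), with shared runs of 50 bases marking near-identical copies. Genes were named by rule: called members, core subunits, assembly factors, the 5 highest and 5 lowest subunits, *Ndufa4*, *Ndufab1*, and up to 2 genes of each further list. Some subunits beyond this rule were named after their values were seen. The values of 1 gene are not reported here, and it is kept in the counts and medians. The members and lists were chosen with earlier results of these data known. Depth was 7484560 to 26953654 reads, so 1 read in SG replicate 1 is a coarser step than elsewhere.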

Additional observations from a re-analysis of the deposited data

How the results depend on the processing

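No complex I gene was called by limma under 9 of the alternatives, namely other scalings, filters, pseudocounts, no trend and array weights, nor by edgeR or without either dSG library. The array weights were equal within a group, at 5.70 for dSG and 0.175 for SG. That fit therefore did not weigh SG replicate 1 apart from SG replicate 2. DESeq2 called 1 subunit, a GC correction 7 subunits and 1 assembly factor, and the GC correction with the replicate block 15 subunits and 2 assembly factors. Over all genes 856 were called, against 320 with a filter of 40 in all libraries, 1936 by DESeq2, 3274 with the GC correction and 4855 with the GC correction and the block. The median of the subunits, 0.28, was 0.34 with quantile normalization, 0.35 with upper quartile scaling and 0.49 with the GC correction, with or without the block. That of the assembly factors, 0.19, was 0.27 with upper quartile scaling and -0.061 with the GC correction, with or without the block. Over all tested genes the median was 0.014 in the main fit. It was 0.098 with quantile normalization, 0.091 with upper quartile scaling and 0.075 with the GC correction, with or without the block. The all-gene median thus moved as well, and the cause was not tested.

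Leaving out 1 library gave 475 to 11452 genes called, 0 to 28 subunits and 0 to 11 assembly factors, and medians of 0.20 to 0.33 for subunits and 0.12 to 0.24 for assembly factors. Without an SG library the spread rests on the dSG pair alone, so that most genes pass, and the lone SG library is assumed to vary like dSG. Among genes whose sign changed with a call, the log2 fold change over the fits without 1 library ran from -0.86 to 0.41 for *Ndufa8*, -0.46 to 0.33 for *Ndufb11*, -0.55 to 0.57 for *Ndufa13*, -0.42 to 0.98 for *Ndufa2* and -0.29 to 0.32 for *Ndufs7*.

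The replicate number as a block called 2940 of all 14108 tested genes, among them 4 subunits, *Ndufa1*, *Ndufa4*, *Ndufs5* and *Ndufb2*. Deviations of same-numbered libraries from their group means correlated at 0.23 over 14108 genes. The labels give no source of pairing, so the libraries share only a number. Precision is limited by 2 libraries a group and by 7484560 reads in SG replicate 1. Fits of the same 4 libraries, with other models of the spread or with a GC correction, called 0 to 17 of the 50 genes. The 17 came with the GC correction and the block, a fit that called 4855 of all 14102 genes in it.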
